A study of Mus musculus with 6 samples.

Results

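The miR-183, miR-96 and miR-182 cluster is a group of 3 microRNAs (miRNAs) made from neighbouring hairpins. The assays named mmu-miR-183, mmu-miR-96 and mmu-miR-182 were taken by name from the deposited tables, with no limit on the threshold cycle, which gave 3 of 345 miRNA assays. The star-strand assay miR-183* is described beside them, and no other assay in these tables carried the name of 1 of these hairpins. The cells were mouse CD8+ pMel-1 T cells, whose transgenic receptor recognises the melanoma antigen gp100, and miRNAs were measured by RT-PCR with SYBR Green. In one group the T cells were activated with bone marrow-derived dendritic cells matured with lipopolysaccharide (DC-primed, 3 samples), and in the other with splenic B cells loaded with the peptide hgp100(25-33) (B cell-primed, 3 samples). Priming lasted 3 days in vitro in both groups, and a DC-primed and a B cell-primed sample were made in each of 3 rounds. The sources used here do not give the strain and age of the animals, any peptide on the dendritic cells, or any removal of the priming cells before RNA extraction.

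The hairpins of the cluster are made from a common primary transcript in mouse and human. The cluster is best known from sensory organs, where a mutation in the seed of miR-96 causes hearing loss. In T cells, interleukin-2 signalling raises miR-182, which represses Foxo1, a transcription factor that keeps lymphocytes quiescent, and the cluster is also induced in interleukin-17-producing helper T cells. A miRNA recognises its targets mainly through its seed, bases 2 to 8 from the 5′ end.

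The mature sequences are shown because their likeness bears on what the members can target and on how well the assays separate them. They come from RefSeq (GRCm38.p6, minus strand of chromosome 6), run 5′ to 3′, and have the seed in capitals. All 4 assays matched an entry, the plain names to the 5p strand and miR-183* to the 3p strand.
miR-183 (chr6:30169711-30169732): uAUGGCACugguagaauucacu
miR-96 (chr6:30169506-30169528): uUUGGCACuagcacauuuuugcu
miR-182 (chr6:30165962-30165986): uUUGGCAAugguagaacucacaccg
miR-183* (chr6:30169672-30169693): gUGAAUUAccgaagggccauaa

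miR-96 and miR-182 had bases 2 to 7 in common and differed in the last base of the seed. Among 1679 mature mouse miRNAs in RefSeq, only miR-1271-5p also had these bases, and it was not analysed here. The seed of miR-183 was found in no other mature mouse miRNA of that table, and 6 of its 7 bases were identical in place to those of miR-96. Over the whole length the order was different. Aligned from the 5′ end without gaps, miR-183 and miR-182 were identical at 18 of 22 bases and miR-183 and miR-96 at 13 of 22. For miR-182 and miR-96 it was 12 of 23. After base 9, which leaves out the seed, the same pairs had 11 of 13, 5 of 13 and 4 of 14 identical. Each assay paired a miRNA-specific forward primer with a universal reverse primer, and signal shared between miR-183 and miR-182 was not tested. The Mir183 and Mir96 hairpins lie 116 bases apart and Mir182 lies 3453 bases from Mir96, all inside the long non-coding RNA gene Mirc35hg.

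Levels are given as minus dCt on the log2 scale, where dCt is the threshold cycle (Ct) minus 1 number per sample set by the authors, so that a higher value means more miRNA and 1 unit is a 2-fold difference. DC-primed sample 3 stood apart before any result: 280 of 350 miRNA assays had a Ct below 35 there, against 327 to 341 in the other samples, and its median Ct was 31.84, against 27.5 to 29.59. A Ct of 35 or above was flagged as late, since few molecules then give the signal. Late values were found for miR-183 and miR-96 in DC-primed sample 3 and for no other member or sample.

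miR-183, the first hairpin of the cluster, was lower in all 3 DC-primed samples than in all 3 B cell-primed samples. Its level was -3.67, -3.93 and -4.76 in DC-primed samples 1, 2 and 3, the last from a late Ct of 35.22. In B cell-primed samples 1, 2 and 3 it was -0.70, -0.98 and -2.10. The groups did not overlap: the lowest B cell-primed sample lay 1.57 above the highest DC-primed one. The difference, DC-primed minus B cell-primed, was -2.86 ± 0.70 (SE; 95% confidence interval -4.51 to -1.22), or 7.28-fold more miR-183 in B cell-primed cells. On the authors' scale it was the most even of the members, at -2.97, -2.95 and -2.66 in rounds 1, 2 and 3. The SD over rounds was 0.17 there, rank 7 from the smallest of 345 assays, where the median assay had 1.28. This evenness depended on the scale: in raw Ct with the sign turned, the rounds gave -2.80, -4.29 and -5.49 (SD 1.35, against 0.82 for miR-182). With the small RNAs RNY3 and snoRD47 as the reference they gave -1.66, -0.47 and -2.78 (SD 1.15, against 0.66 for miR-182).

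The miR-183 difference did not pass the test across all assays (limma, adjusted p = 0.371, unadjusted p = 0.0043). Of all 345 assays, limma called 0 (0%) at the threshold of 0.05 on the adjusted p, and 27 (7.83%) had an unadjusted p under 0.05, of which 25 (7.25%) were lower in DC-primed cells. Leaving out DC-primed sample 1, 2 or 3 turned that count of 27 into 66, 17 and 48. Leaving out a B cell-primed sample gave 13, 13 and 18. Scaling to the assay cel-mir-67 gave 1, but its mean Ct ran from 17.55 in DC-primed sample 3 to 25.11 in DC-primed sample 2. By unadjusted p miR-183 ranked 4 of 345. In the authors' deposited table the paired test over rounds gave p = 0.0012 for miR-183, rank 2 from the smallest of 345, with a fold change of 0.137 (DC-primed over B cell-primed). In that test 18 assays (5.22%) had a p under 0.05; after Benjamini-Hochberg adjustment over the 345 values miR-183 was at 0.208, and 0 assays (0%) were under 0.05. With the round as a block limma called 0 assays (0%) too, and the adjusted p of miR-183 was 0.257.

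miR-182, which has been studied as a repressor of Foxo1 in activated helper T cells, was also lower in every DC-primed sample than in any B cell-primed one, by a narrower margin. DC-primed samples 1, 2 and 3 had levels of -4.14, -4.03 and -3.56. B cell-primed samples 1, 2 and 3 had -1.10, -0.93 and -3.14. The DC-primed samples lay close together, while B cell-primed sample 3 was low and came within 0.42 of the highest DC-primed sample. The difference was -2.19 ± 0.79 (SE; 95% confidence interval -4.05 to -0.33), or 4.56-fold more in B cell-primed cells, and it did not pass (limma, adjusted p = 0.535, unadjusted p = 0.0267). It was -3.04 and -3.10 in rounds 1 and 2 and -0.42 in round 3.

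miR-96, the member with the best known role in hearing, had the lowest group mean level in both groups and the widest spread. Its levels were -3.98, -6.04 and -6.49 in DC-primed samples 1, 2 and 3, the last from a late Ct of 36.95. In B cell-primed samples 1, 2 and 3 they were -3.60, -1.78 and -5.86. The groups overlapped: B cell-primed sample 3 was below DC-primed sample 1. The difference of -1.76 ± 1.19 (SE; 95% confidence interval -4.55 to 1.03) did not pass (limma, adjusted p = 0.809). Round 2 gave -4.26, while rounds 1 and 3 gave -0.38 and -0.63. Without round 2 the difference was -0.51, without B cell-primed sample 2 it was -0.78, without B cell-primed sample 3 it was -2.82, and with the late Ct set to 35 it was -1.11.

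**Figure D1:**
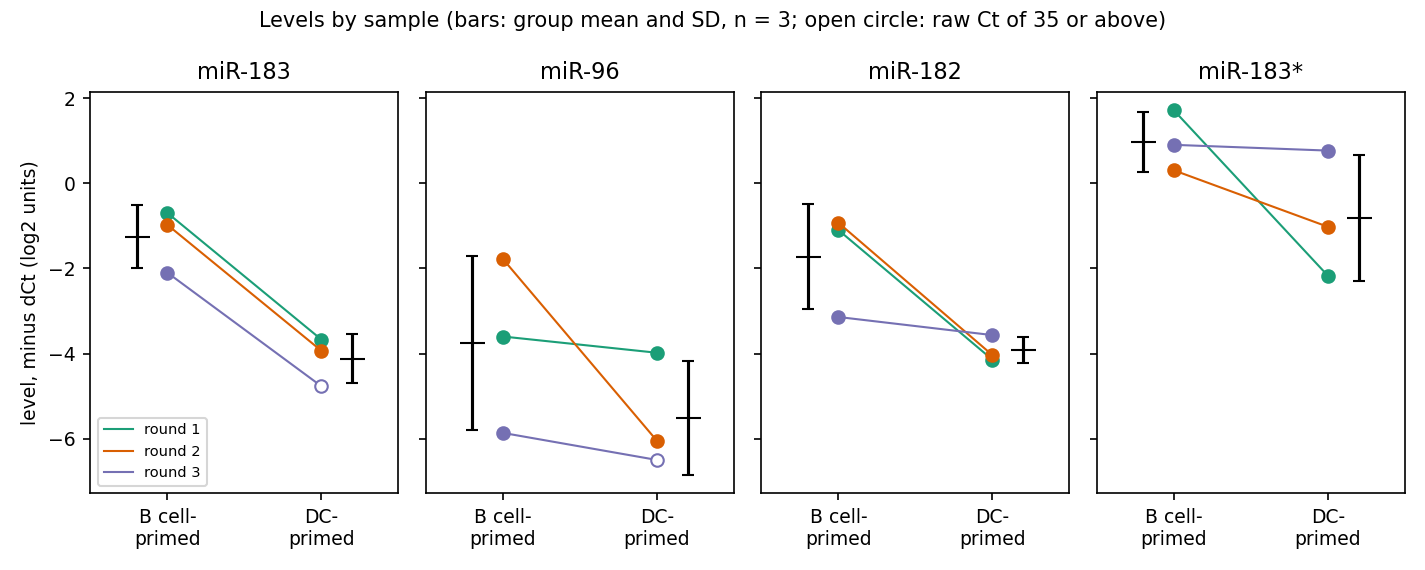
Levels (minus dCt, log2 units) of miR-183, miR-96, miR-182 and miR-183* in each sample, with a line joining the samples of a round, an open circle for a raw Ct of 35 or above, and bars for the group mean and SD (n = 3). All lines slope down to DC-primed cells, evenly for miR-183 (-2.97, -2.95 and -2.66) and unevenly for miR-96 and miR-182, on the authors' scale.

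The members were lower in DC-primed cells in 9 of 9 comparisons within a round on the authors' scale and in raw Ct, in 8 of 9 with RNY3 and snoRD47 or the sample median as the reference, in 7 of 9 with cel-mir-67 and in 5 of 9 with RNY3 and snoRD47 of their own stretch of the Ct table, described with the references. The share of all assays lower in all 3 rounds moved too, from 15.4% (53 of 345) on the authors' scale to 41.2% in raw Ct and 2.69% with RNY3 and snoRD47. On the authors' scale, 34 (9.86%) had every DC-primed sample below every B cell-primed one, as miR-183 and miR-182 did, and 71 (20.6%) had a mean difference of -1 or below. The median difference over all 345 assays was 0.01. The members are not independent of each other, since they were measured in the same RNA of each sample.

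**Figure D2:**
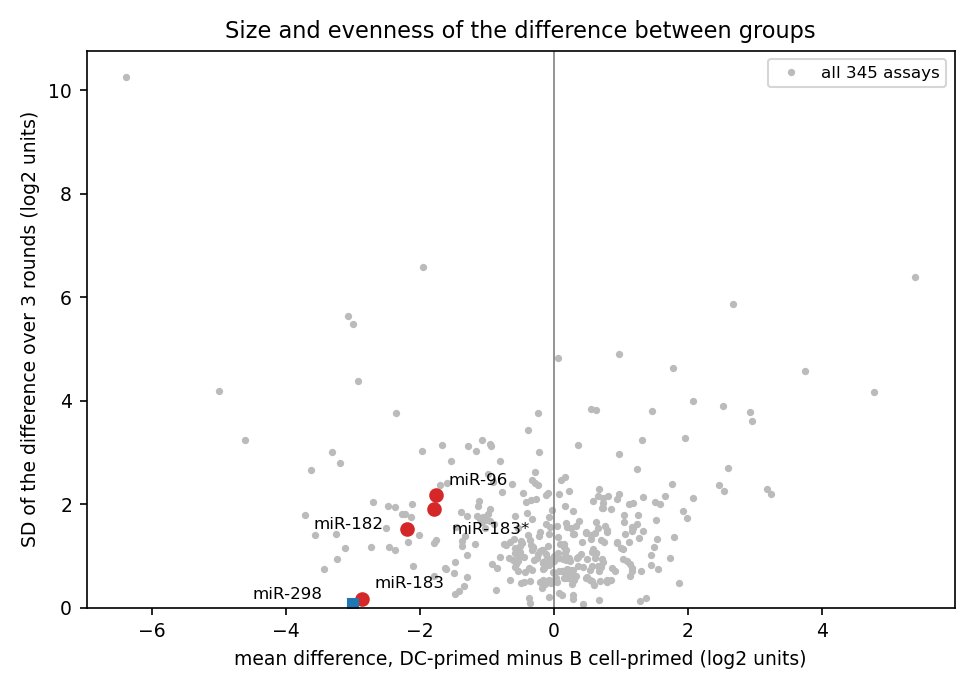
Mean difference between the groups (DC-primed minus B cell-primed, log2 units) against the SD of that difference over 3 rounds for all 345 assays in grey, with the cluster's assays in red and miR-298 in blue. On this scale, the authors', miR-183 lies at -2.86 with an SD of 0.17, while miR-96, miR-182 and miR-183* have SDs of 1.53 to 2.17.

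miR-183*, the opposite strand of the miR-183 hairpin, had an earlier Ct than miR-183 in all 6 samples. Its level was -2.17, -1.02 and 0.77 in DC-primed samples 1, 2 and 3 and 1.71, 0.30 and 0.90 in B cell-primed samples 1, 2 and 3, so the groups overlapped. The difference was -1.78 ± 0.91 (SE; limma, adjusted p = 0.661), with -3.88, -1.32 and -0.13 in rounds 1, 2 and 3. It was -1.10 without DC-primed sample 1, -0.73 without round 1 and -0.55 with RNY3 and snoRD47 as the reference. Within a sample, miR-183 minus miR-183* was -1.50, -2.91 and -5.53 in DC-primed samples 1, 2 and 3 and -2.41, -1.28 and -3.0 in B cell-primed samples 1, 2 and 3. Primers differ in efficiency, so these values show how the 2 strands moved against each other, not which was more abundant.

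A difference between 2 members in 1 sample is the same under any scaling that takes 1 number per sample off the Ct, though not under one set separately for each stretch of the Ct table, since miR-96 stands in another stretch than miR-183 and miR-182. miR-183 minus miR-182 was 0.47, 0.10 and -1.20 in DC-primed samples 1, 2 and 3 and 0.40, -0.05 and 1.04 in B cell-primed samples 1, 2 and 3. In rounds 1 and 2 these members therefore lay at most 0.47 apart in both groups, and they parted in round 3, in opposite directions. miR-183 minus miR-96 was 0.31, 2.11 and 1.73 in DC-primed and 2.90, 0.80 and 3.76 in B cell-primed samples. miR-182 minus miR-96 was -0.16, 2.01 and 2.93 in DC-primed and 2.50, 0.85 and 2.72 in B cell-primed samples. DC-primed minus B cell-primed, the group means of these 3 pairs differed by -0.67, -1.10 and -0.43, none of them beyond the spread between samples (exact permutation test, two-sided, p = 0.5, 0.4 and 0.7, all 0.7 after adjustment over 3 pairs; 3 samples against 3 allow no p below 0.1). Relative to RNY3 and snoRD47 of their own stretch, both gaps with miR-96 turned, to 0.62 for miR-183 and 1.30 for miR-182, and relative to the median of their own stretch they were -0.54 and 0.13. In B cell-primed cells the mean levels ran from miR-183 at -1.26 ± 0.74 through miR-182 at -1.72 ± 1.23 to miR-96 at -3.74 ± 2.05, and in DC-primed cells from miR-182 at -3.91 ± 0.31 through miR-183 at -4.12 ± 0.57 to miR-96 at -5.50 ± 1.34 (SD, n = 3 each). Within each group miR-183 and miR-182 differed by less than their spread, and the order holds only as far as the assays are equally efficient.

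Before normalization the mean Ct of each member was later in DC-primed cells, and so was the Ct of the median assay. Raw Ct was 29.85, 32.39 and 35.22 for miR-183, 30.16, 34.50 and 36.95 for miR-96 and 30.32, 32.49 and 34.02 for miR-182 in DC-primed samples 1, 2 and 3. In B cell-primed samples 1, 2 and 3 it was 27.05, 28.10 and 29.73 for miR-183, 29.95, 28.90 and 33.49 for miR-96 and 27.45, 28.05 and 30.77 for miR-182. In raw Ct with the sign turned, miR-183 differed by -4.19, miR-182 by -3.52 and miR-96 by -3.09 between the groups, where the median of all assays was -1.33. Taking 1 number per sample off the Ct moves all assays alike, so the distance of a member from the median assay hardly depends on that number: over the 6 such scalings it was -2.87 to -2.83 for miR-183, -2.20 to -2.16 for miR-182 and -1.77 to -1.73 for miR-96.

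**Figure D3:**
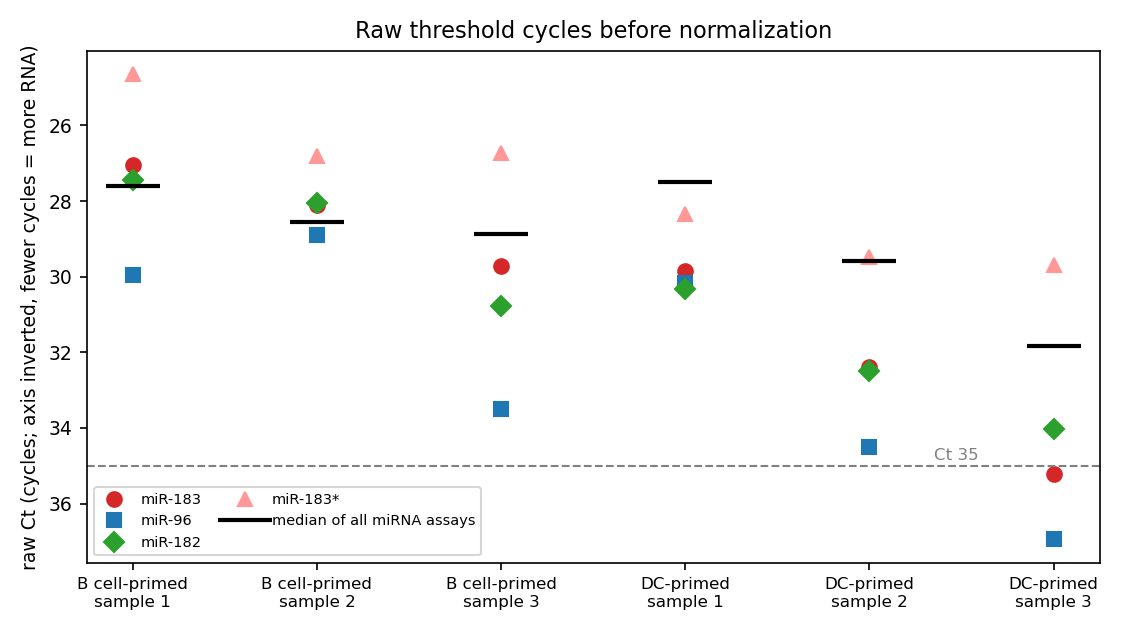
Raw Ct in cycles (inverted axis) of the cluster's assays in each sample, with the median of all miRNA assays of that sample as a black bar and Ct 35 as a dashed line. miR-183 lies above the median bar in B cell-primed samples 1 and 2 and below it in all 3 DC-primed samples, where its Ct reaches 35.22.

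The size of the differences depended on the reference. With the small RNAs RNY3 and snoRD47 as the reference, miR-183 differed by -1.64, miR-182 by -0.96 and miR-96 by -0.53, where the median of all assays was 1.23. The Ct table repeats its RNY3 and snoRD47 wells in each of 4 stretches of 94 rows, and miR-183 and miR-182 stand in the fourth stretch, miR-96 and miR-183* in the second. In the fourth stretch these control wells had a mean Ct 4.89 to 8.77 cycles later than in the other 3, and DC-primed minus B cell-primed they differed by 1.11, 5.50 and 5.15 cycles in rounds 1, 2 and 3, against 1.40, 3.56 and 1.62 in the second stretch. Relative to the control wells of their own stretch, miR-183 differed by -0.27 ± 1.62 (SE), with -1.69, 1.21 and -0.34 by round. miR-182 turned to 0.40 ± 1.65 there, and miR-96 differed by -0.90 ± 1.65. The 86 miRNA assays of the fourth stretch had a median difference of -0.19 on the authors' scale, with -0.13, 0.07 and -0.52 by round, and 20.9% of them were lower in all 3 rounds, against 12.6% to 14.9% in the other stretches. Relative to the median of its own stretch, miR-183 differed by -2.61, -2.64 and -2.41 in rounds 1, 2 and 3, miR-182 by -2.68, -2.79 and -0.17 and miR-96 by -0.67, -4.36 and -1.01.

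**Figure D4:**
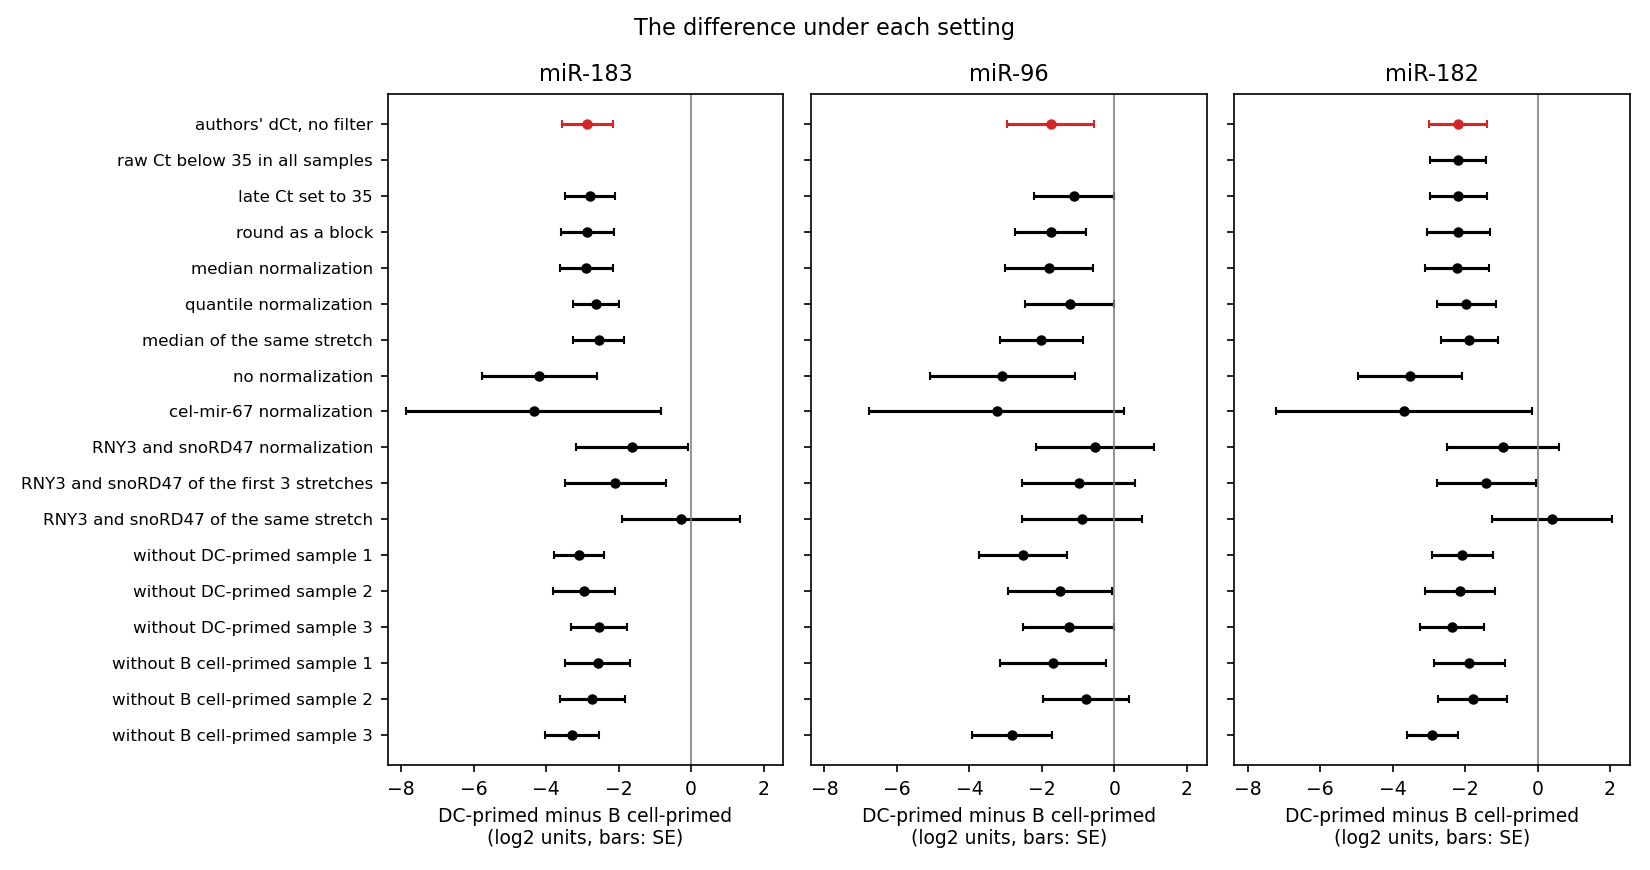
Difference between the groups (DC-primed minus B cell-primed, log2 units, bars: SE) of each member under each setting, with the authors' scale in red. Points lie left of 0 except for miR-182 relative to RNY3 and snoRD47 of its own stretch, at 0.40. miR-183 and miR-96 have no point in the row limited to a raw Ct below 35.

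The profile of miR-183 over the 6 samples was nearest to that of miR-298, a miRNA of the imprinted Gnas locus. Likeness was measured as the root mean square difference between profiles centred on their means, over 299 mouse-named assays outside the cluster, and was 0.19 for miR-298 where the median assay had 1.81. miR-298 differed by -3.02, -2.90 and -3.06 in rounds 1, 2 and 3. Next came miR-23b at 0.67, whose deposited dCt and Ct do not match (by up to 4.0 cycles), and miR-363 at 0.71. Placed among these outside assays by their distance from miR-183, the cluster's own assays would rank 3 for miR-182 (0.69), 24 for miR-96 (1.17) and 50 for miR-183* (1.39). miR-182 was nearest to miR-363 at 0.46 and miR-106a at 0.58, both from the X-linked paralog of the miR-17 to miR-92a polycistron, and to miR-23b at 0.62. miR-96 was nearest to miR-27a* at 0.78, miR-29a at 0.79 and miR-25 at 0.89. These likenesses rest on 6 samples that share the same per-sample numbers.

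**Figure D5:**
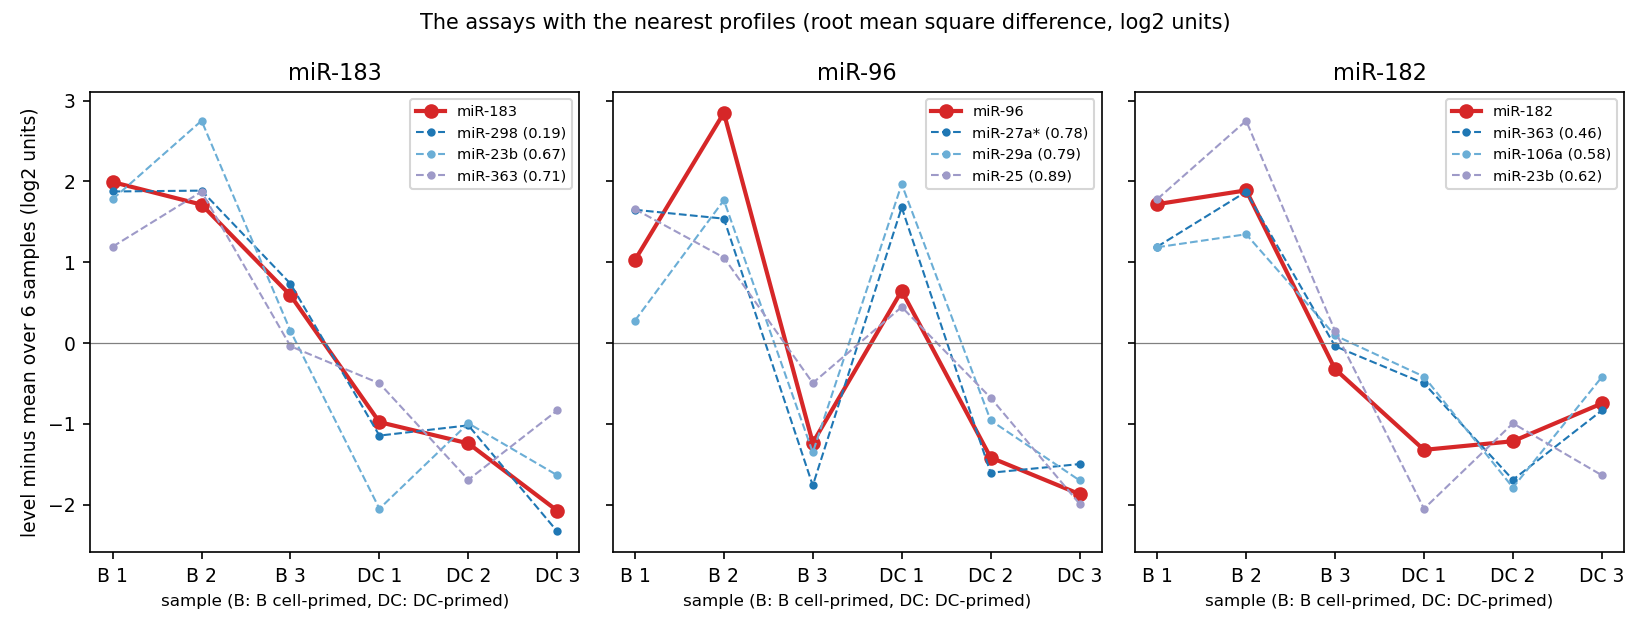
Levels centred on the mean over 6 samples (log2 units) for each member in red and for its 3 nearest assays outside the cluster, with the root mean square difference in brackets. miR-298 stays close to miR-183 in all 6 samples (0.19), and the nearest assay to miR-96 is farther off (0.78).

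miRNAs raised by T cell activation differed in both directions. Of 18 such assays outside the cluster, all measured, 7 had a lower and 11 a higher mean after priming by dendritic cells. Over all 345 assays, 172 had a lower mean. The median difference of the list was 0.59, against 0.01 over all assays, and 0 passed in either direction (limma, where 0% of all assays passed). Without DC-primed sample 3, the sample that stood apart, limma called miR-146b of this list higher in DC-primed cells, at 6.92 ± 0.99 (SE; adjusted p = 0.0116) against 2.68 with all samples. With a raw Ct limit of 35 in the other samples limma again called 5 assays. These included miR-222, at 4.98 ± 0.96 (limma, adjusted p = 0.0288) against 2.94 with all samples, and -1.12 in round 3. With all samples the list ran from miR-18a, which promotes lymphocyte proliferation with its cluster partners, at -3.62 ± 1.29 (SE) to miR-21, an abundant miRNA of activated T cells, at 3.19 ± 1.33. Of 6 other miRNAs reported to repress Foxo1, 4 were measured. Of these, 2 were lower and 2 higher, and 0 passed: miR-370 at -1.61 ± 0.74 and miR-27a at -0.21 ± 1.65, miR-139-5p at 1.45 ± 0.76 and miR-223, which is abundant in myeloid cells, at 5.40 ± 2.64. miR-223 was called without DC-primed sample 3, at 8.68 ± 1.17 (SE; limma, adjusted p = 0.0116, and 0.00376 with the Ct limit).

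Markers of myeloid and dendritic cells had higher means in DC-primed cells, opposite in sign to the cluster, and 0 passed the test with all samples, while miR-223 passed without DC-primed sample 3, as given above. All 4 of 5 listed markers that were measured (miR-223, miR-22, miR-99b and miR-125a-5p) had a higher mean in DC-primed cells. Only miR-99b was higher in all 3 rounds: miR-22 differed by -0.39 in round 2, and miR-223 and miR-125a-5p by -1.49 and -0.20 in round 3. The log2 of the summed level of the 4 was 6.99, 2.92 and 1.04 in DC-primed samples 1, 2 and 3, against 0.64 to 1.59 in B cell-primed samples. In round 3, where this sum was 1.04 and 0.64 in the 2 groups, miR-183 differed by -2.66 and miR-182 and miR-96 by -0.42 and -0.63. Higher means in DC-primed cells were not particular to the myeloid and dendritic list. They were also found for 3 of 3 B cell markers (miR-150, miR-148a and miR-34a) and for 2 of 2 markers of resting lymphocytes (miR-150 and miR-26a). These 2 lists share miR-150 and are not independent. Of 4 epithelial markers, 2 were higher (miR-200a and miR-200b) and 2 lower (miR-200c and miR-141). For comparison, 172 of all 345 assays had a lower mean in DC-primed cells. The 3 B cell markers had a sum of 4.24 to 5.63 in DC-primed and 3.53 to 4.18 in B cell-primed samples. Of the 3, miR-150 had the earliest Ct in every sample and so the largest share of that sum. In DC-primed sample 1 its Ct was 20.65, against 25.6 for miR-148a and 25.26 for miR-34a. For the 4 of 7 epithelial markers with a mouse-named assay, the sum was 0.86 to 3.71 in DC-primed and 0.79 to 2.94 in B cell-primed samples. Only mouse-named assays were counted as measured; human-named assays of miR-429 and miR-205, on the epithelial list, were fitted and differed by -0.90 and -1.02. All of the counted markers gave a Ct in every sample, with miR-223 late at 36.99 in DC-primed sample 3, and their part in the cluster's differences was not tested. No list of miRNAs particular to T cells was examined here. miR-142-3p and miR-142-5p, made by all blood cells, were measured in every sample except miR-142-3p in DC-primed sample 3, whose Ct is blank. They too had higher means in DC-primed cells, at 1.78 and 0.59. The first of these values includes a deposited dCt for that sample, with no Ct behind it. In such bulk samples, fewer cells carrying the cluster and less of it per cell cannot be told apart.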

How the data were processed

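Per the labels' protocols, DNase-treated total RNA (mirVana kit) was tailed with poly(A) and copied with tagged oligo-dT primers. The authors deposited raw Ct in 1 table and dCt in another, per the file headers. The authors made dCt, a log2 value with its sign turned, as Ct minus 1 number per sample, per the file headers. The file names state the reverse of these headers. The authors also deposited a paired-test p-value and a fold change as a ratio. The Ct of all members minus that number gave the deposited dCt. A dCt was also deposited, and fitted, where the Ct was blank, as for miR-142-3p in DC-primed sample 3. In that sample 9 of 350 miRNA assays have no Ct. The instrument and the way Ct was called were not given in the sources used here.

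All 345 assays of the dCt table were fitted with limma 3.58.1 in R 4.3.3 (lmFit, eBayes, two-sided, no block), with Benjamini-Hochberg adjustment over all of them and a threshold of 0.05. Standard errors and intervals are limma's. The fit was run on simulated data as a check of the code. Recovery was required only for differences larger than the members', at a smaller spread than in these data. It gives no measure of the power to call the members. Gaps between members were compared by exact permutation over samples. Figures used matplotlib 3.10.9 in Python 3.11.15. The labels do not say what the samples of a round share, so a p-value reflects only how these samples scatter, which may be technical. Same-round deviations from the group means correlated at 0.18, 0.18 and 0.46 over 345 assays, and the rounds were therefore taken to pair the samples. The pairing was used for the differences by round, the block and the paired test; the limma fit above and the permutation tests did not use it.

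The members and lists were chosen with earlier results of these data known. Named assays were the members, the other assays of their hairpins and the 3 nearest profiles per member. From each list the highest, the lowest and any assay called in an alternative were named. The other measured Foxo1-list assays and the measured markers are named to account for their lists. The alternatives, 5 of them chosen after seeing the data, covered detection limits, scaling, late Ct, the block, left-out samples, the paired test and a variance trend.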

Additional observations from a re-analysis of the deposited data

How the results depend on the processing

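No member passed an adjusted p of 0.05 under any alternative run. miR-183 was negative in 23 of 23, from -4.35 to -0.27, and miR-96 in 23 of 23, from -3.25 to -0.51. miR-182 was negative in 23 of 24, from -3.68 to 0.40, the positive value being that relative to RNY3 and snoRD47 of its own stretch. The lowest value of each member came with cel-mir-67 as the reference, at an SE of 3.53. Leaving out 1 sample gave -3.28 to -2.54 for miR-183, -2.82 to -0.78 for miR-96 and -2.90 to -1.79 for miR-182. With the round as a block the differences were unchanged, at -2.86, -1.76 and -2.19, and no call changed. Under a raw Ct limit of 35 only miR-182 could be tested, and under 32 no member could be. limma called 0 assays in 21 of 24 alternatives, and the methods' paired test also called 0. In the other alternatives limma called 1 without DC-primed sample 1 and 5 without DC-primed sample 3, with or without the Ct limit of 35 in the other samples. No member was among these calls (range over all alternatives 0 to 5). Without 1 sample, miR-183 minus miR-182 ranged from -1.01 to -0.18, miR-183 minus miR-96 from -1.95 to -0.47 and miR-182 minus miR-96 from -1.10 to 0.45, the last without DC-primed sample 1. The causes were not tested. Wells with a Ct near 35 hold few molecules, so miR-183 and miR-96 in DC-primed sample 3 are the least certain values.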
